A study of Mus musculus with 8 samples.

Results

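The genes described here make and use S-adenosylmethionine and the polyamines, and they were read in mouse aortic smooth muscle cells after transfection with a mimetic of moR-21, a small RNA cut from the miR-21 precursor. Members were 10 gene symbols (Mat2a, Mat2b, Ahcy, Mtap, Amd1, Odc1, Srm, Sms, Sat1 and Oaz1), and every array probe carrying one of these symbols was read on its own. The array table held 15 such probes of 7 genes among its 25697 probes. Of these, 13 probes in 6 genes were detected and tested, out of 11651 tested probes. Amd1, Sat1 and Oaz1 have no probe under those symbols and were not analysed here. A Mat2b probe (ILMN_2588505) and the single Sms probe (ILMN_1232323) were not detected on any array, so no difference is given for them.

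Primary cells were grown out from pieces of several mouse aortas and transfected with the scrambled control oligonucleotide or the moR-21 mimetic, both at 5 nM, and total RNA was taken 48 h later. There were 3 samples per treatment. The 6 samples were read on 8 Illumina mouse BeadChip arrays, because sample 1 of the control and sample 3 of moR-21 had repeat arrays (A and B), which were averaged before testing. The strain, age and sex of the mice that gave these aortic cells are not stated in the labels, and the sources used here do not say that the samples were separate cell preparations, so the p-values measure the spread between these samples, which may be technical.

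Methionine adenosyltransferase joins methionine to ATP to make S-adenosylmethionine, the methyl donor of most methylation reactions in the cell. After a methyl group is given away, the remaining S-adenosylhomocysteine is split by Ahcy, and the homocysteine can be turned back into methionine. A second use of S-adenosylmethionine is polyamine synthesis, in which Odc1 makes putrescine, decarboxylated S-adenosylmethionine supplies aminopropyl groups to Srm and Sms for spermidine and spermine, and Mtap returns the methylthioadenosine left over to methionine. Polyamines are known for their link to cell growth, including that of vascular smooth muscle cells.

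The RNA sequences are shown because the mimetic stands for the stretch that precedes miR-21a-5p on the same hairpin. The hairpin of Mir21a is at chr11:86584067-86584158 on the minus strand of GRCm38.p6 (RefSeq), and it is written 5′ to 3′ with the bases before miR-21a-5p in capitals. The 17-base stretch alone follows with GUACC, the run common to the first seed windows that the study considered, in capitals, then the mature miR-21a-5p with its seed, bases 2 to 8, in capitals. The exact ends of the transfected mimetic were not used here. Hairpin bases are numbered from the hairpin's own first base, so these numbers are not the study's positions in moR-21. The last line gives the final 30 bases of the Mat2a probe whose identifier in the study's supplementary probe list encodes its sequence, with capitals marking the bases complementary to bases 1 to 8 of the hairpin.
Mir21a hairpin: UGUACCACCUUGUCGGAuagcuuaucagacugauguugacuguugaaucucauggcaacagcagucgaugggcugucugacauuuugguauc
5′ stretch: uGUACCaccuugucgga
miR-21a-5p: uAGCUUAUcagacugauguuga
Mat2a probe, last 30 bases: agaaagctgacttggctggtGTGGTACAga
The complementary run GTGGTACA covers probe positions 41 to 48, counted from 1 at the 5′ end of the 50-base probe. It was present in 3 of the 838 probes whose sequences could be decoded (0.358%), and the 7-letter motif TGGTACA, the complement of hairpin bases 1 to 7, was present in 8 of them (0.955%), each searched on the probe strand. Those 838 probes are a list the study chose for differing between the treatments, so these shares describe that list only, and a match of letters is not a binding site. The supplementary list holds 1 Mat2a identifier, taken by its symbol as that of the called probe, and where the probe lies on the transcript was not determined here.

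The call was that of the study's methods, a fold change over 1.3 (0.38 on the log2 scale) with an adjusted p under 0.002 from limma (Benjamini-Hochberg over all 11651 tested probes). All signals below are quantile-normalized log2 intensities. The array medians before normalization lay between 102 and 109, and 10285 to 10512 probes per array had a detection p-value under 0.01. Differences are moR-21 minus control, and the median difference over all tested probes was 0.0048. Since a probe's brightness depends on its sequence, no level is compared between probes or genes.

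Of the cell markers on the arrays, 3 of 8 smooth muscle genes were detected on all 8 arrays (Acta2, Smtn and Des), while Myh11, Cnn1 and Myocd were detected on none. All 4 fibroblast markers, 1 of 7 endothelial markers (Vwf), 1 of 6 macrophage markers (Lyz2) and 2 of 3 mesothelial markers (Upk3b and Krt19) were detected on all arrays. The summed intensity of the smooth muscle markers was 10253 to 10634 in control and 13004 to 13846 in moR-21 samples, and Acta2, whose probe gave most of this sum, rose by 0.40. Des differed by -0.38 (limma adjusted p = 8.60e-05), just short of the fold limit, and Smtn by -0.05 (limma adjusted p = 0.626). That of the fibroblast markers was 16388 to 17197 in control and 13610 to 14607 in moR-21 samples, with Lum lower by a log2 difference of -0.56, and that of the mesothelial markers was 864 to 877 against 495 to 509, with Upk3b at -1.24. The macrophage sum was 665 to 683 against 729 to 739, with Lyz2 at 0.48. Csf1r, the other tested macrophage marker, differed by -0.01 (limma adjusted p = 0.859). The endothelial sum was 719 to 730 against 732 to 748. Both sums include the signal of markers detected on no array, 4 of 6 macrophage (Ptprc, Cd68, Emr1 and Itgam) and 6 of 7 endothelial. The part of these shifts in the differences below was not tested, and in bulk RNA fewer cells of a type and less RNA per cell cannot be told apart. The submitters' description field names the cells as AoECs, whereas the source and cell type fields name AoSMCs. Pecam1, Cdh5, Kdr, Tek, Tie1 and Emcn, which define endothelial cells, were detected on no array.

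Mat2a, the catalytic subunit of methionine adenosyltransferase, fell after the moR-21 mimetic at its brightest probe, and it was the only called gene among the members. Of the 13 tested member probes, 1 was called (7.69%), a fall, against 6.96% of all tested probes called in either direction and 3.85% called lower. At an adjusted p under 0.05 with no fold limit, 3 member probes were lower and 2 higher, or 38.5% of them against 33.8% of all tested probes. The 3 samples of each treatment did not overlap in 8 member probes (61.5%, 5 lower and 3 higher), against 45% of all tested probes. A single probe is 7.69% of the members, so these shares are given as a description with no test. The probes of a gene share its transcripts and are not independent of each other.

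Mat2a lies at chr6:72432796-72439556 (GRCm38.p6) and had 4 tested probes. At its brightest, ILMN_2978838, the log2 signal was 11.04, 10.91 and 11.00 in control samples 1 to 3 and 10.58, 10.50 and 10.61 in moR-21 samples 1 to 3. All moR-21 samples lay below all control samples, and the gap between the groups was wider than the range within either. The log2 fold change was -0.42 (SE 0.051, 95% interval -0.53 to -0.31, limma adjusted p = 2.31e-05), a 1.34-fold fall, which is close to the 1.3-fold limit. An exact two-sided permutation test of the 3 against 3 samples gave p = 0.1, the smallest that this design allows. Ranked by size, this fall was number 364 of the 448 probes called lower, so most called falls on the array were larger.

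The other Mat2a probes were all lower in the mean, by less, and none of them was called. At ILMN_2593368 the log2 signal was 7.38, 7.43 and 7.47 in control and 7.24, 7.33 and 7.30 in moR-21 samples, a difference of -0.13 (SE 0.047, limma adjusted p = 0.0425). At ILMN_1258415 it was 7.26, 7.20 and 7.25 in control and 7.17, 7.05 and 7.15 in moR-21 samples, a difference of -0.11 (SE 0.049, limma adjusted p = 0.0955). The treatments did not overlap at either probe. At ILMN_1248368 the values were 6.98, 7.10 and 7.10 in control and 6.91, 7.09 and 6.84 in moR-21 samples, which overlap, and the difference was -0.11 (SE 0.063, limma adjusted p = 0.205). It was -0.18 without moR-21 sample 2 (limma adjusted p = 0.0269) and -0.06 without moR-21 sample 3 (limma adjusted p = 0.577). That last probe missed the detection limit on array 3A of moR-21, and it is the single tested member probe not detected on all 8 arrays.

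The repeat arrays of 2 samples differed in how closely they matched at the dim Mat2a probes. Arrays A and B of moR-21 sample 3 read 6.97 and 7.33 at ILMN_1258415 and 7.17 and 7.44 at ILMN_2593368, gaps wider than the treatment differences at those probes. Arrays A and B of control sample 1 read 7.25 and 7.26 at ILMN_1258415 and 7.37 and 7.38 at ILMN_2593368, gaps much narrower than those differences. At the brightest probe arrays A and B of moR-21 sample 3 read 10.60 and 10.61. With array B alone in place of the pair, the differences at ILMN_2593368 and ILMN_1258415 were -0.09 and -0.05 (limma adjusted p = 0.268 and 0.613), and with array A alone they were -0.18 and -0.17 (0.0212 and 0.0311). The brightest probe differed by -0.43 with array A alone and by -0.41 with array B alone.

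**Figure D1:**
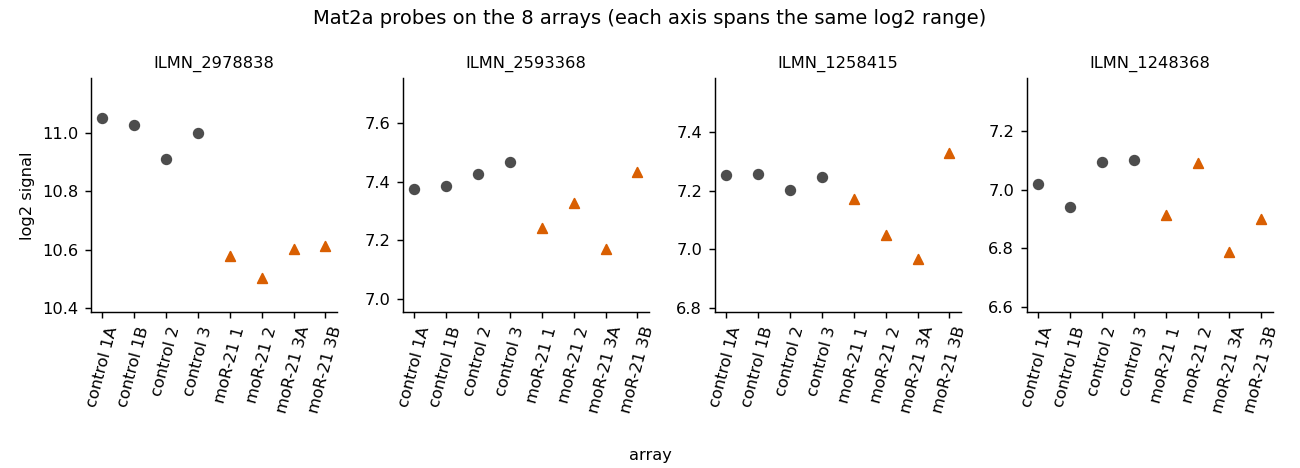
Quantile-normalized log2 signal of the 4 Mat2a probes on each of the 8 arrays, with control arrays as grey circles and moR-21 arrays as orange triangles, and with vertical axes that span equal log2 ranges. At ILMN_2978838 all moR-21 arrays lie between 10.50 and 10.61 and all control arrays between 10.91 and 11.05, whereas at ILMN_2593368 and ILMN_1258415 arrays 3A and 3B of one moR-21 sample stand apart.

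The Mat2a difference was larger at the brightest probe than at the others in the mean, and less so after background correction. The brightest probe's difference was lower than that of the other probes by -0.29, -0.31 and -0.31 on the log2 scale, each with an exact permutation p of 0.1 (0.175 after Benjamini-Hochberg over the 7 pairs of probes of one gene), the smallest p for 3 against 3. After normexp background correction, which uses the detection p-values to estimate the background and removes it, the dim probes differed by -0.27, -0.28 and -0.33 and the brightest by -0.44. The gaps between brightest and dimmer probes were then -0.17, -0.16 and -0.11, with unadjusted exact permutation p-values of 0.3, 0.1 and 0.8. Under that correction the limma adjusted p of the brightest probe was 0.00254, just outside the limit, and the call was lost, while over all the other alternatives with the same limits it was kept.

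Mat2b, the regulatory subunit that binds Mat2a, lies at chr11:40679314-40695203 and gave the largest upward difference among the members, though it was not called. At ILMN_2959037 the log2 signal was 8.96, 8.86 and 8.90 in control and 9.28, 9.08 and 9.09 in moR-21 samples. The treatments did not overlap, and moR-21 sample 1 was the highest. The difference was 0.25 (SE 0.058, 95% interval 0.12 to 0.37, limma adjusted p = 0.00466), short of both limits of the call. Without moR-21 sample 1 it was 0.18 (limma adjusted p = 0.0200). The dimmer Mat2b probe ILMN_1248381 read 8.37, 8.42 and 8.33 in control and 8.49, 8.44 and 8.40 in moR-21 samples, which overlap, with a difference of 0.07 (SE 0.048, limma adjusted p = 0.308), or 0.04 without moR-21 sample 1. The difference between these probes, 0.18, had an exact permutation p of 0.1 (0.175 adjusted).

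Ahcy, the enzyme that removes S-adenosylhomocysteine, lies at chr2:155059310-155074497 and had 1 probe. It read 7.27, 7.37 and 7.37 in control and 7.22, 7.25 and 7.20 in moR-21 samples, so the moR-21 samples were all lower, by a small margin. The difference was -0.11 (SE 0.047, limma adjusted p = 0.0800) and was not called.

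Mtap, which salvages the methylthioadenosine left by polyamine synthesis, lies at chr4:89137370-89181090 and was slightly higher at both probes without a call. ILMN_2742867 read 8.65, 8.65 and 8.53 in control and 8.72, 8.72 and 8.73 in moR-21 samples, with a difference of 0.11 (SE 0.048, limma adjusted p = 0.0863), or 0.07 without control sample 3. ILMN_2879486 read 8.09, 7.97 and 8.09 in control and 8.27, 8.13 and 8.21 in moR-21 samples, with a difference of 0.15 (SE 0.053, limma adjusted p = 0.0391). The treatments did not overlap at either Mtap probe, and the probes' differences lay within 0.04 of each other (exact permutation p = 0.8).

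Odc1, which makes putrescine and is the first enzyme of polyamine synthesis, lies at chr12:17544808-17551502 and showed no detectable difference. Its probe read 9.07, 9.11 and 9.15 in control and 9.11, 9.09 and 9.34 in moR-21 samples. The treatments overlapped, and moR-21 sample 3 alone was above the control range, with its arrays A and B at 9.20 and 9.48. The difference was 0.07 (SE 0.063, 95% interval -0.06 to 0.21, limma adjusted p = 0.414), and without moR-21 sample 3 it was -0.0066.

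Srm, spermidine synthase, lies at chr4:148591513-148594619, and its 3 probes were lower by nearly equal amounts, none of them called. ILMN_2809611 read 7.94, 8.02 and 7.93 in control and 7.76, 7.97 and 7.75 in moR-21 samples, which overlap (difference -0.14, SE 0.061, limma adjusted p = 0.10). ILMN_2630641 read 7.72, 7.72 and 7.60 in control and 7.55, 7.54 and 7.54 in moR-21 samples, which do not (difference -0.13, SE 0.048, limma adjusted p = 0.0452). ILMN_1225880 read 7.65, 7.64 and 7.53 in control and 7.43, 7.55 and 7.53 in moR-21 samples, with overlap (difference -0.11, SE 0.052, limma adjusted p = 0.121). Without moR-21 sample 2 the difference at ILMN_2809611 was -0.21 (limma adjusted p = 0.00783), and without moR-21 sample 1 that at ILMN_1225880 was -0.07 (limma adjusted p = 0.354). The Srm probes differed from each other by no more than 0.03, with exact permutation p-values of 0.9 and 0.7.

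**Figure D2:**
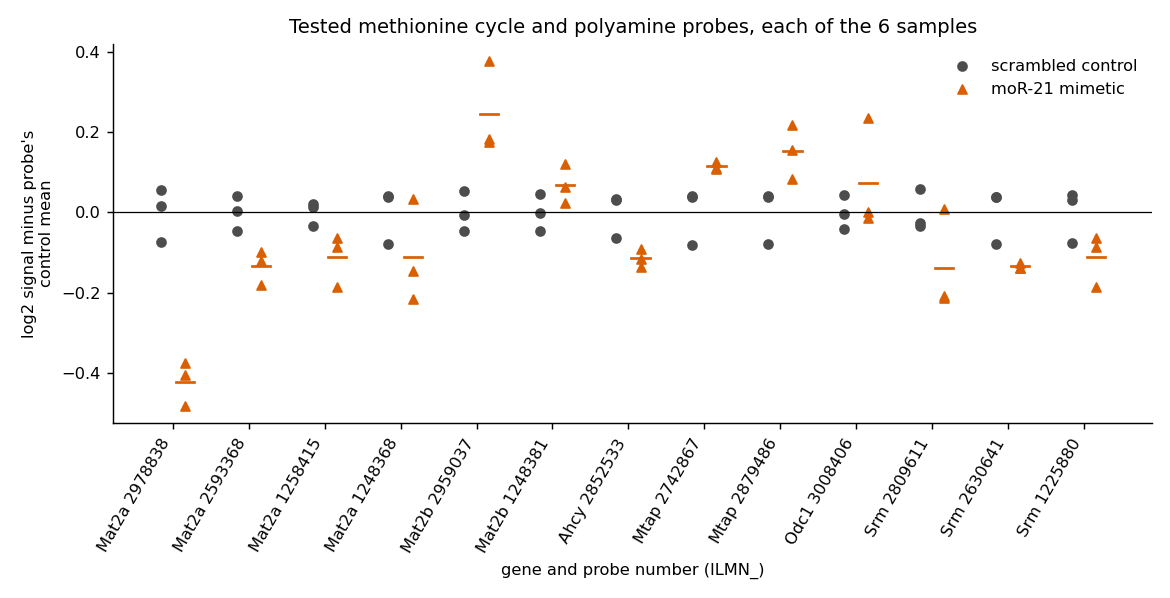
Log2 signal of the 13 tested probes in each of the 6 samples, relative to the probe's control mean, with control samples as grey circles, moR-21 samples as orange triangles and the moR-21 mean as an orange line. The moR-21 samples of Mat2a ILMN_2978838 stand apart at a mean of -0.42, and all other probes have moR-21 means between -0.14 and 0.25.

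Of the 12 uncalled member probes, all had a 95% interval inside the 1.3-fold limits in either direction without background correction. After normexp correction this held for 3 of the 12, and 7 of the 13 tested probes had a difference over 1.5 times as large as before. Those 7 were the 3 dim Mat2a probes, Ahcy (-0.24) and the Srm probes (-0.21, -0.23 and -0.20). The direction of every member probe was the same with and without the correction.

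**Figure D3:**
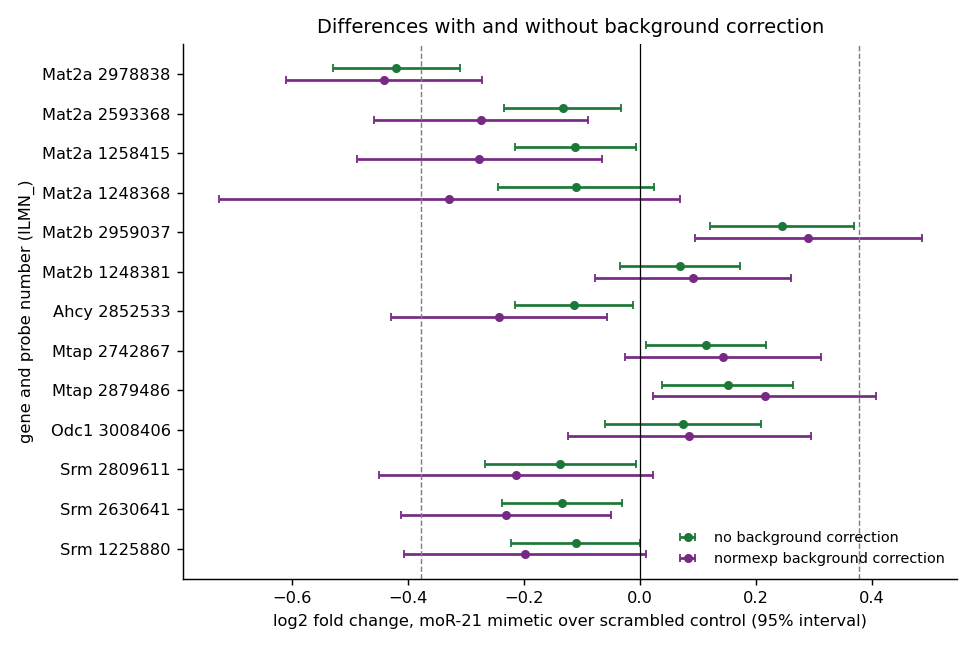
Log2 fold change of each tested probe with its 95% interval, without background correction (green) and after normexp correction (purple), with dashed lines at 1.3-fold in either direction. Mat2a ILMN_2978838 keeps its size (-0.42 and -0.44), whereas the dim Mat2a, Ahcy and Srm probes move further from 0. The intervals widen at every probe, and that of ILMN_2978838 goes from -0.53 to -0.31 before correction to -0.61 to -0.27 after it.

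The other genes around these steps were read at their brightest tested probe in 5 lists of 81 genes, of which 74 are on the table and 49 were tested. Both calls were rises, Ada and Tyms. This was 4.08% of the 49 genes, against 7.79% of all 8727 tested genes read in the same way. At an adjusted p under 0.05, 13 list genes were higher and 6 lower (38.8%, against 36.1% of all tested genes). Their median difference was 0.03, and that of all tested genes 0.0056.

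In the methionine cycle and salvage list, 9 of 16 genes were tested, 4 were higher at an adjusted p under 0.05, none was lower, and the median difference was 0.05. Ada, adenosine deaminase, which clears the adenosine released by Ahcy, read 7.09, 7.14 and 7.11 in control and 7.56, 7.48 and 7.57 in moR-21 samples. It rose by 0.42 (SE 0.046, limma adjusted p = 8.90e-06), and by 0.89 after normexp correction. Adi1, a dioxygenase of methionine salvage downstream of Mtap, differed by 0.35 (SE 0.046, limma adjusted p = 4.66e-05), short of the 1.3-fold limit without normexp correction and called with it (0.45, limma adjusted p = 0.00174). The remaining members with an adjusted p under 0.05 were Adk, adenosine kinase, at 0.18, and Ahcyl2, a relative of Ahcy, at 0.15.

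In the folate one-carbon list, which covers the supply of methyl groups to homocysteine, 9 of 16 genes were tested, 2 were higher at an adjusted p under 0.05 and none was lower. Tyms, thymidylate synthase, read 8.57, 8.66 and 8.48 in control and 8.91, 9.08 and 8.95 in moR-21 samples. It rose by 0.41 (SE 0.058, limma adjusted p = 9.15e-05) at its brightest probe, and a dimmer probe at 0.18 was not called. The Tyms call was lost without control sample 3 and without moR-21 sample 2 (0.36 in each fit), with array A alone (0.38) and after normexp correction (limma adjusted p = 0.00298). Shmt1, the cytosolic serine hydroxymethyltransferase, differed by 0.22 (limma adjusted p = 0.0113).

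The polyamine interconversion, antizyme and hypusine list had 10 of 18 genes tested and 0 called by limma, 4 were higher at an adjusted p under 0.05, and the median difference was 0.07. Sat2, a diamine acetyltransferase of the same family as Sat1, read 7.94, 7.87 and 7.90 in control and 8.22, 8.39 and 8.18 in moR-21 samples. The difference of 0.36 (SE 0.056, limma adjusted p = 1.97e-04) was just under the fold limit, and Sat2 was called with array B alone (0.38), without moR-21 sample 1 (0.38) and without moR-21 sample 3 (0.40). Smox, spermine oxidase, differed by 0.21 (limma adjusted p = 0.00357), Dhps, which uses spermidine to make hypusine on Eif5a, by 0.17 (0.0196), and Oaz2, an antizyme that restrains ornithine decarboxylase, by 0.17 (0.0148). The Amd2 probe, whose table entry gives Amd1 as a synonym, differed by 0.03 (limma adjusted p = 0.733), and since Amd1 and Amd2 are near-identical copies the probe cannot be assigned to either with certainty.

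Among methyltransferases, which spend S-adenosylmethionine, 18 of 25 genes were tested and 0 were called by limma. At an adjusted p under 0.05, 3 were higher and 6 lower, and the median difference was -0.08. Dnmt1, the maintenance DNA methyltransferase, read 7.86, 7.92 and 7.89 in control and 8.17, 8.14 and 8.18 in moR-21 samples, a difference of 0.28 (limma adjusted p = 2.57e-04). Dnmt3b, a de novo DNA methyltransferase, read 7.87, 7.81 and 7.75 in control and 7.56, 7.55 and 7.63 in moR-21 samples, a difference of -0.23 (limma adjusted p = 0.00228). Neither passed the fold limit. The other genes at an adjusted p under 0.05 were Suv39h1 (0.19) and Pcmt1 (0.16) on the higher side, and Ezh2 (-0.19), Dot1l (-0.17), Icmt (-0.17), Carm1 (-0.16) and Lcmt1 (-0.15) on the lower side. After normexp correction Suv39h1, a histone methyltransferase, was called higher at 0.63 (limma adjusted p = 8.16e-04). Its probe was dim, with a mean log2 signal of 6.87, and it was not detected on every array.

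Of the regulators of Mat2a and Odc1 mRNA, 3 of 6 were tested, and 0 of these had a limma adjusted p under 0.05. Mettl16, Myc and Mycn had no tested probe, so no difference is given for them. Nudt21, a cleavage factor that sets the choice of poly(A) site, differed by -0.14 (limma adjusted p = 0.132), Max, the partner of Myc, by -0.10 (0.0939), and Ythdc1, a reader of methylated adenosine, by 0.04 (0.679).

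**Figure D4:**
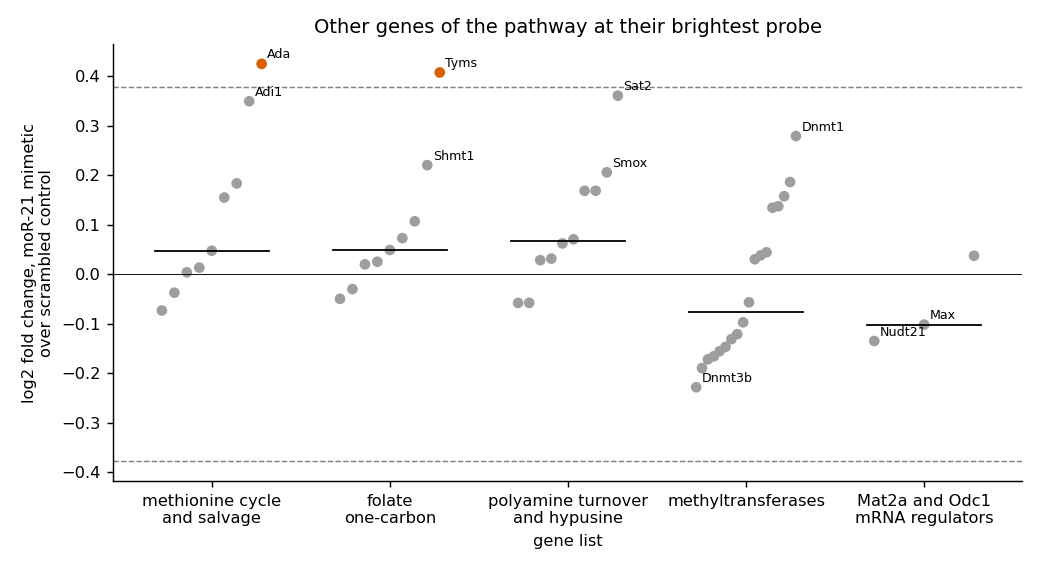
Log2 fold change of the 49 tested list genes at their brightest probe, 1 point per gene, with called genes in orange, list medians as black lines and dashed lines at 1.3-fold in either direction. Ada (0.42) and Tyms (0.41) lie beyond the limit, Sat2 (0.36) and Adi1 (0.35) just inside it, and the methyltransferases spread from -0.23 to 0.28.

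All tested probes of other genes were compared with the brightest Mat2a probe over the 6 samples, each centred on its control mean. Those most like it were of C1s, Trak2, Rin2, Paip2b and Ppm1b. Their root mean square differences from Mat2a were 0.0332, 0.0338, 0.0344, 0.0351 and 0.0356 on the log2 scale. Their own log2 fold changes were -0.41, -0.39, -0.45, -0.42 and -0.46, all called lower. The shift from control was part of the match, so falls near that of Mat2a follow from the selection and are no separate result. C1s, a complement protease, read 8.51, 8.46 and 8.44 in control and 8.08, 8.01 and 8.09 in moR-21 samples.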

How the data were processed

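For each array the authors deposited a non-normalized intensity per probe, for which no background correction is stated, together with a detection p-value. Every column was matched to its sample by name. All 8 arrays went into a single quantile normalization before log2 transformation, repeat arrays of a sample were averaged, and limma 3.58.1 (lmFit and eBayes, R 4.3.3) compared the treatments with no covariate, over probes whose detection p-value was below 0.01 on 1 array or more. Intervals are 95%. Normexp used an offset of 16. Exact permutation tests were written in Python 3.11.15 with numpy 2.4.6, and scipy 1.17.1 adjusted their p-values. Tables and plots used pandas 2.3.3 and matplotlib 3.10.9.

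The members and lists were chosen with earlier results of these data known. Named were all member probes, of each list the called genes and the 2 with the largest differences, and the 5 genes most like Mat2a; other genes were named after their values were seen. Symbols are those of the table, and 5 list genes were matched by an older symbol. Gene positions are from GRCm38.p6. Where intensities include background, differences at dim probes can be compressed towards 0 without correction. The part of this in the differences given here was not tested. The limma fit was tested on simulated data whose added differences were all larger than those of the member probes, so recovery at their size was not tested. The number of arrays limits the precision.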

Additional observations from a re-analysis of the deposited data

How the results depend on the processing

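The alternatives were normexp background correction, median scaling, cyclic loess, detection on all arrays, no detection filter, array A or B alone, all 8 arrays with duplicateCorrelation, eBayes with trend and robust, the replicate block, each sample left out, a looser adjusted p (under 0.05) and a stricter fold change (over 1.5). Over all 18, the Mat2a fall at ILMN_2978838 had a limma adjusted p from 1.48e-06 to 0.00254 (the highest after normexp correction) and was called in 16. It was not called after normexp correction (-0.44) or at a fold change over 1.5 (-0.42), where 0 member probes were called. With a sample left out it lay between -0.46 and -0.39, and 1 member probe was called each time. Probes called on the whole array went from 811 to 260 at a fold change over 1.5, and to between 772 and 851 with a sample left out. List genes called went from 2 to 1 with array A alone, 0 at a fold change over 1.5, and between 1 and 3 with a sample left out. Odc1 changed sign with array A alone (-0.0082) and ranged from -0.0066 to 0.12 with a sample left out. The difference between Srm probes ILMN_2809611 and ILMN_2630641 changed sign after normexp correction (0.0170), median scaling (0.0099), cyclic loess (0.0076) and with array B alone (0.0227), and ranged from -0.0782 to 0.0368 with a sample left out. That between ILMN_2809611 and ILMN_1225880 changed sign with array B alone (0.0275) and ranged from -0.0754 to 0.0238, and that of the Mtap probes ranged from -0.0977 to 0.0216. The cause was not tested.

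Deviations of samples of the same number had correlations of 0.187, 0.0441 and 0.0597 across probes. Those of samples of different numbers ranged from -0.129 to 0.0693. The main fit did not take the numbers as pairs, and whether they are pairs was not settled by these values. With the replicate block, 815 probes were called, Mat2a differed by -0.42 (adjusted p 1.48e-06), and the called members remained 1. A slide block was not run, since no slide is named in the table.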
